A study of Arabidopsis thaliana with 12 samples.

Results

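Of the 1919 windows read out in this series, 56 carried RNA mainly on 1 strand and strongly favoured poly(A)+ RNA in uninduced seedlings. Their signal was far higher in the poly(A)+ fraction than in the ribo-minus fraction. A window of 3000 bp is centred on a putative enhancer, and its values are a signal per strand in each library. Windows were taken where the larger strand averaged at least 1005 in the 3 uninduced poly(A)+ libraries and the smaller strand less than 1005, which 1223 windows met. Members were those whose signal, summed over both strands, had a ratio of at most 0.22 between the mean of uninduced ribo-minus replicates 2 and 3 and the mean of the uninduced poly(A)+ libraries. The other 1167 windows with 1 dominant strand serve as the comparison below and are called the other one-sided windows. Some members overlap each other, and joined by strand they formed 51 loci. In 38 members the larger strand was plus and in 18 it was minus.

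The series profiled RNA of Arabidopsis thaliana seedlings aged 7 days, all of an RNA interference line that silences RRP41, a core subunit of the exosome, when estradiol is given. The 4 groups were induced ribo-minus, induced poly(A)+, uninduced ribo-minus and uninduced poly(A)+, with 3 biological replicates each and 12 libraries in all. Induced seedlings had grown on estradiol plates, and uninduced seedlings of the same line were the control, so estradiol itself and the loss of RRP41 cannot be told apart. Both fractions were made from the same total RNA of whole seedlings, where fewer cells of a type and less RNA per cell cannot be told apart. Total signal over all windows lay between 26531272 and 31455657 in induced ribo-minus, 55804893 and 58289055 in induced poly(A)+, 18738150 and 22715708 in uninduced ribo-minus, and 55822358 and 58489785 in uninduced poly(A)+ libraries. Read numbers are unknown. The smallest value above 0 differed between libraries, with a range of 107 to 1005. Uninduced ribo-minus replicate 1 had the same value on both strands in 100% of windows, so it was not resolved by strand. Seed storage and pollen markers had 0 windows each, the root list had 4 windows (ESB1, RHD3 and RHD2, which has 2), and the leaf list matched only PSAT1, a serine synthesis gene picked up by its letters. No marker window was a member, so the tissue could be checked by the root genes alone.

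Poly(A)+ selection captures RNA with a poly(A) tail, chiefly mature messenger RNA, while ribosomal RNA depletion keeps both tailed and untailed RNA. The exosome is a 3′ to 5′ exonuclease complex of RNA decay and maturation, and transcripts that arise at enhancers differ in whether they carry a tail. The scale between fractions was set by the authors' processing, so the ratio of a window is read against that of other windows.

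The DNA at some members is shown for orientation, since most of the annotated genes reach only part of the way into their window. The stretches are 100 bases at the window centre that lie outside annotated genes, taken for some of the members described below, and 250 bases before the annotated start of AT1G05120, the member with the lowest measured ratio. Sequences are from the RefSeq TAIR10.1 assembly, 5′ to 3′ on the strand that carries the signal. Capitals mark TATAAA, the core of the TATA box, or the L1 box, the epidermal promoter element TAAATGCA or TAAATGTA, on either strand (TATAAA reads TTTATA where it lies on the other one), and no capitals overlap in the stretches shown. CACGTG, the G-box, was searched too. For PDF1, an epidermal gene, an L1 box inside the annotated gene is shown in 30 bases.
AT1G05120, before the start (chr1:1476290-1476539, minus strand): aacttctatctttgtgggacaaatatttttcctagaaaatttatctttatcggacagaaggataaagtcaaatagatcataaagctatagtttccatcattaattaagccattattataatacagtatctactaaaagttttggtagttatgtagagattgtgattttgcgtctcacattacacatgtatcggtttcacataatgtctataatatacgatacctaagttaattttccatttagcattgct
AT5G25230 and KNAT3, centre (chr5:8739413-8739512, plus strand): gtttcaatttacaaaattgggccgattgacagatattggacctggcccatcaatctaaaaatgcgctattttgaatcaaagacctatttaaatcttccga
SR34a, centre (chr3:18335201-18335300, plus strand): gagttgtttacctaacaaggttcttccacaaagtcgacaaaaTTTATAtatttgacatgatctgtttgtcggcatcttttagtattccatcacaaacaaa
ALDH3I1, centre (chr4:16393372-16393471, plus strand): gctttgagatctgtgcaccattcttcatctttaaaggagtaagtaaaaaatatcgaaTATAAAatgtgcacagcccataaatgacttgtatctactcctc
AT3G17110, centre (chr3:5837365-5837464, plus strand): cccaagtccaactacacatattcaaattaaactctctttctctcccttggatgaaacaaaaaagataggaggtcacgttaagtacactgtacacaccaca
AT5G53150, centre (chr5:21558166-21558265, plus strand): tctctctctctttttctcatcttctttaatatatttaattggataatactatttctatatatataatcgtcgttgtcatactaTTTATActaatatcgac
PDF1, centre (chr2:17828400-17828499, minus strand): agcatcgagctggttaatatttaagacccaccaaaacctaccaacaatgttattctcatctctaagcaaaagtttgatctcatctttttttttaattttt
PDF1, L1 box (chr2:17827600-17827629, minus strand): atgggatagtgTAAATGCAcctgcaacaca

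Matches were a description of these letters only. TATAAA stood in 10 of 56 member centres (17.9%), against 13.1% of all 1919 window centres of 100 bases. The L1 box was found in 2 member centres (3.57%), against 1.25% of all centres. The G-box was found in 3 member centres (5.36%), against 3.54%. In whole windows of 3000 bases the L1 box was present in 21 members (37.5%), against 30.6% of all windows. Of the 26 members that hold the annotated 5′ end of their gene, 11 (42.3%) had TATAAA in the 250 bases before it, against 47.3% of 27443 protein-coding genes. The L1 box and the G-box each stood in 1 of these 26 stretches (3.85%), against 4.49% and 6.49% of the protein-coding genes.

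The uninduced values that chose the members are given as a description. The median ratio was 0.178 in members and 0.449 in the other one-sided windows. Members were also more strongly covered, with a median uninduced poly(A)+ mean of 21997, against 11042 in the other one-sided windows, and a range of 1035 to 85950. Just inside the limit lay PDIL2-2 (0.212), AT1G61440 (0.214), ARF9 (0.215), AT2G39240 (0.216) and AT4G36515 (0.219), and just outside lay NP3 (0.2206), AT2G44200 (0.2209), AT5G21080 (0.2219), AT1G80810 (0.2224) and Cand1 (0.2251). In 7 members the ratio was 0 because ribo-minus replicates 2 and 3 were listed at 0, and 4 of these 7 had a poly(A)+ mean under 3 times the 1005 that the least sensitive library could show. The unstranded replicate 1 was not used by the rule, though it shares its poly(A)+ denominator. Its median ratio was 0.183 in members and 0.395 in the other one-sided windows, and 38 of 56 members (67.9%) were again at or below 0.22.

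The preference for poly(A)+ RNA recurred in induced seedlings, whose 6 libraries had no part in choosing the members. The induced ratio had a median of 0.209 in members (quartiles 0.160 and 0.250), against 0.406 in the other one-sided windows (quartiles 0.326 and 0.567). It ran from 0.0387 to 0.797 over the members. A ratio of at most 0.22 was kept by 32 of 56 members (57.1%), against 25 of 1167 other one-sided windows (2.14%). Across the 1216 one-sided windows with a measured ratio in both conditions, Spearman's rho between the ratios was 0.81. These windows share libraries and some overlap each other, so this is a description.

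**Figure D1:**
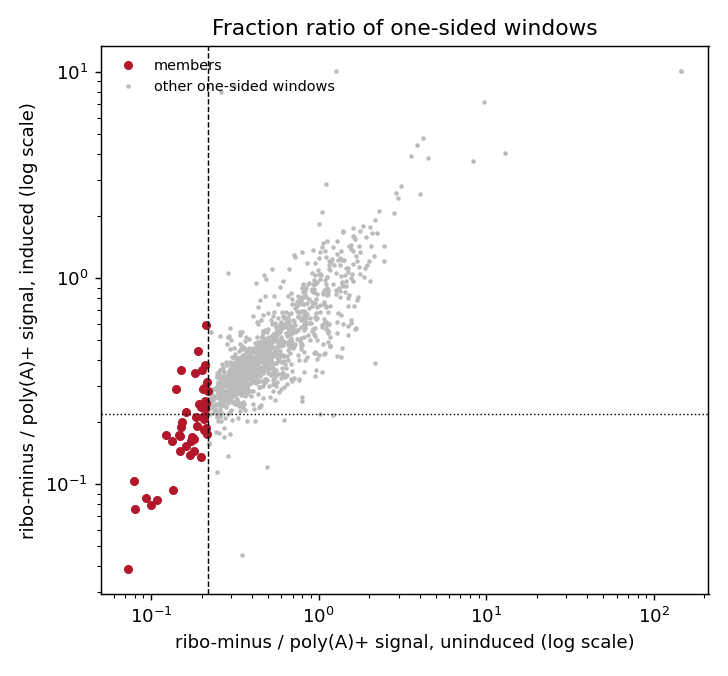
Ratio of ribo-minus to poly(A)+ signal of one-sided windows in induced seedlings (vertical axis) against uninduced seedlings (horizontal axis), both on log scales, with 49 members in red and 1167 other one-sided windows in grey; the 7 members with an uninduced ratio of 0 cannot be drawn. The dashed line is the limit of 0.22 that chose the members and the dotted line is the same value for induced seedlings. Of all 56 members, drawn or not, 32 had an induced ratio at or below 0.22. The highest drawn member, at AT1G61440, reaches 0.590, and RAD9, at 0.797, is among the 7 not drawn.

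All window values below are sums over both strands unless a strand is named. Values belong to the whole window, and in 29 of 56 members the signal strand held at least 2 genes. Genes of that strand not named below include AT1G77020 and AT1G77040 at AT1G77030, AT2G35330 at MEE29, AT4G15840 at RH1 and LOL2 at AT4G21620. Others are AT5G66470 at MAN7, AT5G06400 at FLA17, KCS16 at ALDH3I1, PPH at AGL15 and CSLG3 at ARF9. By library, the median signal over members was 4311, 3122 and 3126.5 in induced ribo-minus replicates 1 to 3, against 19668.5, 19306 and 21582 in induced poly(A)+ replicates 1 to 3. The groups did not overlap. The same medians over the other one-sided windows were 5444, 4195 and 4331 in induced ribo-minus and 10826, 9934 and 10750 in induced poly(A)+ libraries. In each of these 6 libraries the members thus stood below the other one-sided windows in the ribo-minus fraction and above them in the poly(A)+ fraction. The per-library median of the members differed by -2.53 on the log2 scale between induced ribo-minus and induced poly(A)+ libraries, 5.79-fold lower. Relative to the other one-sided windows of the same library the difference was -1.35, 2.55-fold lower. Both had a two-sided exact permutation p of 0.1, the smallest that 3 against 3 libraries allow. That test left out the pairing of the fractions by total RNA. With same-numbered libraries paired, the exact permutation p of both was 0.25, the smallest that 3 pairs allow. Members took between 0.733% and 0.916% of the total signal in induced ribo-minus libraries and between 2.48% and 2.63% in induced poly(A)+ libraries.

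**Figure D2:**
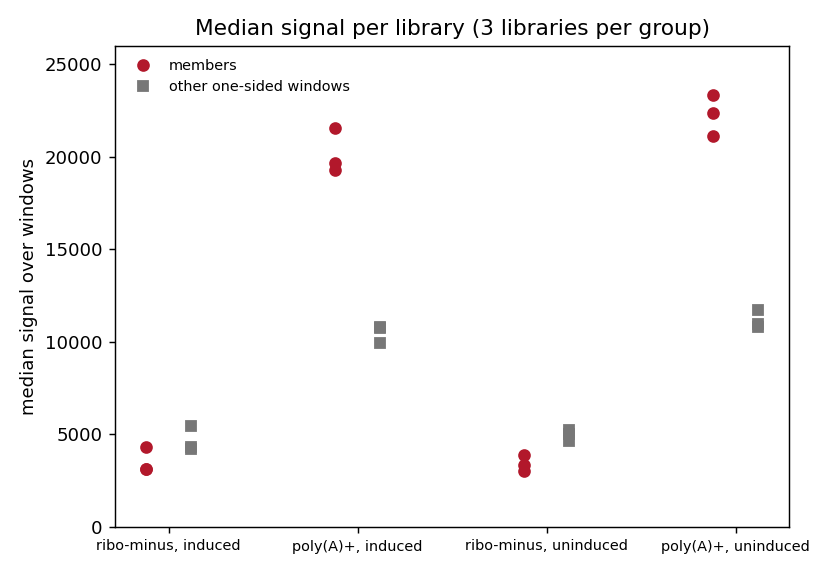
Median signal over the 56 members (red circles) and over the 1167 other one-sided windows (grey squares) in each of the 3 libraries of each group, on a linear axis from 0. Members lie between 3122 and 4311 in induced ribo-minus libraries and between 19306 and 21582 in induced poly(A)+ libraries, while the other one-sided windows are separated by less.

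Window by window, limma called 52 of 56 members lower in induced ribo-minus than in induced poly(A)+ libraries and 0 higher (adjusted p under 0.05, with 52 members at an unadjusted p under 0.05). Of all 1889 windows tested, 73.3% were called lower and 2.33% higher, so the count alone sets the members little apart. The size of the difference was larger in members. Their median log2 change was -2.44 (range -7.03 to -0.32), against -1.32 in the other one-sided windows and -1.41 in all windows. The -7.03 was at AT1G09495, where induced ribo-minus replicates 2 and 3 were listed at 0. The median was -2.42 over the 51 members that could be tested with every value raised to 1005. With median-ratio scaling, which brings the median of all windows to -0.02, 40 members (71.4%) were called lower and 0 higher. Under that scaling 16.5% of all windows and 12.6% of the other one-sided windows were called lower, and 17.6% of all windows were called higher. The values of induced ribo-minus and induced poly(A)+ libraries did not overlap, with ribo-minus lower, in 52 members, and this was so for 74.4% of all windows.

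A word list for RNA binding and processing matched 6 of 55 members with a gene on that strand (10.9%), against 60 of 1166 other one-sided windows (5.15%). All 6 are annotated as helicases, and PMH2 accounts for 2 of the 6 through overlapping windows. All 6 were called lower in induced ribo-minus libraries, as were 52 of 56 members and 73.3% of all windows. Their median log2 change was -2.73, beside -2.44 over all members, -1.45 in the 60 other windows of the list and -1.41 over all windows.

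AT1G05120 is annotated as a helicase protein with a RING/U-box domain, and its annotation does not name RNA. It had the lowest measured ratio of all members (window chr1:1474757-1477756, minus strand, with the midpoint in the 5′ UTR). Its signal was 3139, 2979 and 2474 in induced ribo-minus and 83473, 67679 and 70786 in induced poly(A)+ libraries. Every ribo-minus value lay far below every poly(A)+ value. The log2 change was -4.69 ± 0.14 (SE, adjusted p = 4.09e-08), 25.8-fold lower, and -3.31 with median-ratio scaling. In uninduced seedlings it held 3300, 6087 and 3933 in ribo-minus and 43155, 90588 and 71708 in poly(A)+ libraries. AT1G05135 lies on the same strand of the window, so the signal cannot be assigned to the helicase gene alone.

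PMH2, which codes for a mitochondrial DEAD-box RNA helicase, is covered by overlapping member windows that share 2665 bp. In the window at chr3:7894050-7897049, plus strand, centred outside genes, signal was 3034, 2572 and 3165 in induced ribo-minus and 28932, 26824 and 28324 in induced poly(A)+ libraries. The change was -3.27 ± 0.14 on the log2 scale (adjusted p = 2.06e-07). The neighbouring window, centred in the 3′ UTR of PMH2, gave 3460, 3071 and 4476 in induced ribo-minus and 27174, 25805 and 26633 in induced poly(A)+ libraries. Both windows had separate groups, and AT3G22333 shares their strand. The putative DEAD-box helicase gene AT1G77030 held 3201, 2547 and 2254 in induced ribo-minus and 16394, 15052 and 14898 in induced poly(A)+ libraries (log2 change -2.55 ± 0.18). For the helicase genes MEE29 and RH1 the log2 changes were -2.60 ± 0.20 and -2.08 ± 0.18.

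Genes of splicing were members too, although the word list did not match them, and they are named here after their values were seen. SR34a codes for a serine/arginine-rich splicing factor and again has overlapping windows, which share 2765 bp. The window at chr3:18333751-18336750, plus strand, held 9472, 11202 and 12208 in induced ribo-minus and 64149, 57585 and 68629 in induced poly(A)+ libraries. The groups were separated, with a log2 change of -2.54 ± 0.13 (adjusted p = 3.33e-07). AT4G36980, annotated as a CLK4-associating serine/arginine-rich protein, held 10726, 9783 and 9019 in induced ribo-minus and 64968, 62093 and 64602 in induced poly(A)+ libraries, with a log2 change of -2.70 ± 0.11. DRT111, a G-patch protein of splicing, held 2940, 2817 and 2911 in induced ribo-minus and 16252, 15592 and 15196 in induced poly(A)+ libraries. Its change was -2.44 ± 0.15, close to the median of all members.

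Very low ratios were also found at windows that the RNA binding and processing list did not match. Only the gene with the longest overlap on the signal strand was searched, so other genes of a window may be of that kind. The window at chr1:27915744-27918743, plus strand, lies between GR-RBP5, a glycine-rich RNA-binding protein gene, and AT1G74240, a mitochondrial carrier gene, and its midpoint is outside genes. It held 3660, 3252 and 4403 in induced ribo-minus and 47841, 48108 and 52678 in induced poly(A)+ libraries. The change of -3.72 ± 0.14 (adjusted p = 1.65e-07) was 13.2-fold, with no overlap. Both genes lie on the plus strand, so either may carry the signal.

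AT4G21620, a gene for a glycine-rich protein at chr4:11489987-11492986, plus strand, held 5894, 5985 and 4564 in induced ribo-minus and 77500, 62745 and 66876 in induced poly(A)+ libraries (log2 change -3.66 ± 0.14). The window between KNAT3, a homeobox gene of the KNOX family, and AT5G25230, annotated as a ribosomal protein S5/elongation factor G family gene, held 2927, 1999 and 1770 in induced ribo-minus and 25781, 25613 and 27973 in induced poly(A)+ libraries. Its change was -3.60 ± 0.20, and the centre of this window is among the sequences shown above. At chr4:8580550-8583549 the midpoint lies in a coding exon of AT4G15040, a subtilisin-like protease gene of the minus strand, while the signal is on the plus strand over AT4G15030. That window held 1670, 721 and 812 in induced ribo-minus and 13028, 13086 and 11181 in induced poly(A)+ libraries, with a change of -3.64 ± 0.32.

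Cell wall genes had 2 of 55 members (3.64%), against 18 of 1166 other one-sided windows (1.54%), and both were called lower in induced ribo-minus libraries, as were 73.3% of all windows. FLA17, a fasciclin-like arabinogalactan protein gene, held 2710, 1767 and 2336 in induced ribo-minus and 22585, 22801 and 27300 in induced poly(A)+ libraries (log2 change -3.43 ± 0.19). MAN7, which codes for a mannan-degrading glycosyl hydrolase, held 4307, 3812 and 4722 in induced ribo-minus and 25609, 24903 and 26666 in induced poly(A)+ libraries (-2.59 ± 0.14). GC5, a golgin of the Golgi apparatus, was not matched by the cell wall list and is named after its values were seen. Its change was -2.63 ± 0.12, and SGB1 lies on the same strand.

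Transport genes had 3 members, namely AT1G74240 above, SUT4 and AT3G01760. The SUT4 window, centred on the noncoding gene AT1G04753 of the opposite strand, held 1035, 255 and 995 in induced ribo-minus and 2654, 2488 and 2781 in induced poly(A)+ libraries. SUT4 is a sucrose transporter of the vacuole membrane, and its change of -2.04 ± 0.55 (adjusted p = 0.00621) was not called with median-ratio scaling (-0.66, adjusted p = 0.334). AT3G01760, an amino acid transporter gene, held 2552, 1005 and 1880 in induced ribo-minus and 4166, 3593 and 4468 in induced poly(A)+ libraries. Its change of -1.26 ± 0.35 (adjusted p = 0.00745) turned to 0.12 with median-ratio scaling (adjusted p = 0.761).

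The remaining lists had few or no members. Stress and defence had 3 members (AT4G27220, AT4G36520 and AT5G53150), of which AT4G36520 and AT5G53150 were called lower in induced ribo-minus libraries, and uncharacterised genes had 3 windows (AT3G04040 and both of AT1G09495), all called lower, where 73.3% of all windows were. With median-ratio scaling AT4G36520 (-0.50, adjusted p = 0.0761) and AT3G04040 (-0.19, adjusted p = 0.754) were not called. AT3G04040 also missed the threshold without induced poly(A)+ replicate 3 (adjusted p = 0.0561). Transcription factors had 1 member, the MADS-box gene AGL15, against 55 of 1166 other one-sided windows, and histones and chromatin had 1, the histone deacetylase HDA15. Hormones had ARF9, an auxin response factor, ribosomal proteins AT5G25230, and ubiquitin AT1G05120, 1 member each. Protein kinases had 0 members of 55, against 75 of 1166 other one-sided windows (6.43%). Photosynthesis, lipid transfer and cytochrome P450 had 0 members, against 4, 6 and 6 other one-sided windows. AGL15, HDA15 and ARF9 were lower in induced ribo-minus libraries, with log2 changes of -2.24 ± 0.14, -2.24 ± 0.13 and -2.59 ± 0.29.

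Among members with high uninduced poly(A)+ signal, PDF1, protodermal factor 1 of the epidermis, had the highest, with an uninduced poly(A)+ mean of 85950. In induced seedlings it held 5197, 7187 and 11258 in ribo-minus and 42647, 46987 and 72874 in poly(A)+ libraries, replicate 3 being the highest in both fractions. The groups did not overlap and the change was -2.81 ± 0.28 (adjusted p = 5.15e-06).

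The window of AT2G35680, a phosphatase gene on the minus strand, is centred in the 3′ UTR of FIS2, a polycomb gene of the plus strand. It held 9597, 8430 and 9112 in induced ribo-minus and 64445, 55632 and 66454 in induced poly(A)+ libraries. ALDH3I1, a stress-related aldehyde dehydrogenase gene, held 12017, 9757 and 8653 in induced ribo-minus and 74005, 59218 and 55336 in induced poly(A)+ libraries, and ASY2, a HORMA-domain gene related to the meiotic axis gene ASY1, held 11056, 7804 and 6450 in induced ribo-minus and 50863, 43448 and 40917 in induced poly(A)+ libraries. AT4G32190 shares the strand of the ASY2 window, which holds 16.9% of the ASY2 transcript. Each of these windows had separate groups, with log2 changes of -2.78 ± 0.12, -2.63 ± 0.16 and -2.45 ± 0.19. AT3G25240, of unknown function, shares its window with ROF1 and changed by -2.26 ± 0.11.

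**Figure D3:**
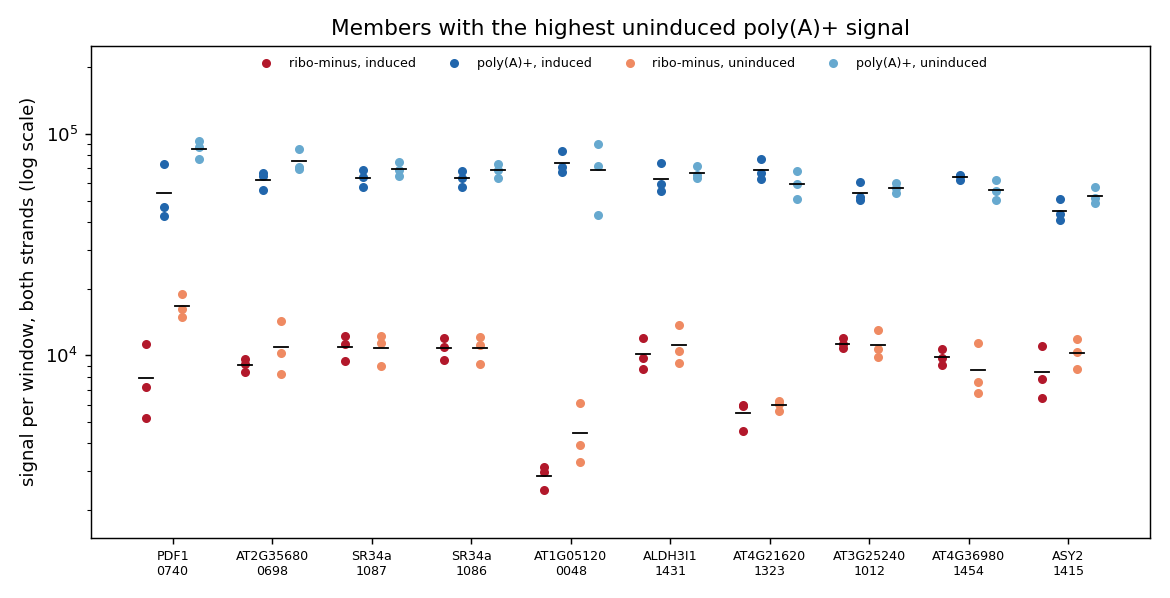
Signal per window (log axis) of the 10 members with the highest uninduced poly(A)+ mean, each point a library and each bar the mean of 3; numbers under the names are window numbers. In every one of these 10 windows the ribo-minus libraries lie below the poly(A)+ libraries in induced seedlings, as in 74.4% of all windows. The same holds in uninduced seedlings, whose values chose the members. AT1G05120 has the widest gap.

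The 4 members that were not called between fractions were at RAD9, opposite AT1G70450, at AT4G03225 and AT4G27220, and at AT1G61450. RAD9, a checkpoint clamp gene, held 998, 650 and 899 in induced ribo-minus and 901, 896 and 1400 in induced poly(A)+ libraries, with groups that overlap and a change of -0.32 ± 0.46 (adjusted p = 0.552) that turned to 1.07 with median-ratio scaling (adjusted p = 0.0604). These values are close to the 1005 that the least sensitive library could show. Its uninduced ratio of 0 came from ribo-minus replicates 2 and 3 at 0, while replicate 1 held 1926. At chr1:26550752-26553751 the larger strand is the minus strand, where no gene is annotated, opposite AT1G70450. Both strands together held 0, 372 and 178 in induced ribo-minus and 901, 1087 and 216 in induced poly(A)+ libraries, and the minus strand alone held 0, 143 and 178 in induced ribo-minus and 901, 725 and 0 in induced poly(A)+ libraries. The window over AT4G03225 and AT4G27220 held, on both strands together, 0, 172 and 476 in induced ribo-minus and 600, 308 and 578 in induced poly(A)+ libraries. The minus strand, which carries both genes, held only 0, 0 and 238 in induced ribo-minus and 0, 0 and 289 in induced poly(A)+ libraries. In uninduced poly(A)+ libraries that strand held 0, 2633 and 471, so its mean rested mostly on replicate 2. In both windows the highest ribo-minus sum was above the lowest poly(A)+ sum, and the adjusted p was 0.134 and 0.182.

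At AT1G61450, a CAP-Gly domain linker gene opposite the receptor kinase gene AT1G61440, both strands together held 4240, 1134 and 1116 in induced ribo-minus and 3107, 3811 and 4080 in induced poly(A)+ libraries. The sum of ribo-minus replicate 1 was above all 3 poly(A)+ sums, but 2083 of it lay on the AT1G61440 strand. The AT1G61450 strand alone held 2157, 727 and 440 in induced ribo-minus and 1861, 2274 and 2911 in induced poly(A)+ libraries, and with the larger strand alone the member was called (-1.38, adjusted p = 0.0388). The change of the sums, -1.06 ± 0.48, had an adjusted p of 0.0688 and turned to 0.33 with median-ratio scaling, and without that replicate it was -1.69 (adjusted p = 0.000147). Calls that depended on the setting included the following members. AT1G09495, a noncoding gene, has overlapping member windows, in which induced ribo-minus replicates 2 and 3 were listed at 0 and replicate 1 at 776. The induced poly(A)+ values of the second window were 901, 1231 and 1565. These windows were called (adjusted p = 0.0327 and 0.0368), but not with median-ratio scaling, nor when any of the induced libraries other than ribo-minus replicate 1 was left out, and their fitted changes depend on the pseudocount. At AT2G01220, a nucleotidylyl transferase gene, induced poly(A)+ replicate 2 held 112346 while replicates 1 and 3 held 29111 and 32608, and the change of -2.61 ± 0.42 missed the threshold with median-ratio scaling (adjusted p = 0.0626).

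After knockdown, 3 member windows were called higher and 7 lower in poly(A)+ libraries (5.36% and 12.5% of 56). Over all 1886 windows tested, limma called 4.45% higher and 5.99% lower. Because high signal in the uninduced poly(A)+ libraries chose the members, nothing is read from these counts, and the values of single members below are a description with no test. With median-ratio scaling the counts were 4 and 4, beside 5.89% and 3.76% of all windows, where PDF1, CENP-C and the LCD1 window were no longer among the calls and the helicase gene AT1G77030 (0.37) was.

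The windows called higher were those of AT3G17110 and AT5G53150. AT3G17110 is a transcribed pseudogene, wholly inside both of its overlapping member windows (chr3:5835915-5838914 and chr3:5837589-5840588, plus strand). Its poly(A)+ signal in the first window was 10948, 8156 and 9225 in induced and 3668, 3741 and 3478 in uninduced libraries. Every induced value was above every uninduced one, and the log2 change was 1.37 ± 0.15 (SE), 2.58-fold. In ribo-minus libraries it held 2663, 834 and 856 in induced and 778, 0 and 0 in uninduced replicates, which was not called. AT5G53150, a gene for a protein with the amino-terminal domain of DnaJ chaperones, held 21125, 19686 and 20989 in induced and 12525, 12331 and 12705 in uninduced poly(A)+ libraries. The groups did not overlap, with a change of 0.72 ± 0.09, 1.64-fold. In ribo-minus libraries AT5G53150 held 5488, 3173 and 3088 in induced and 2008, 2191 and 1573 in uninduced libraries, again without overlap, and its change of 0.99 ± 0.33 was not called.

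After induction the ribo-minus signal of both genes was still below their poly(A)+ signal. The change between fractions in induced seedlings was -2.92 ± 0.42 at AT3G17110 and -2.45 ± 0.22 at AT5G53150. The pseudogene was listed at 0 in uninduced ribo-minus replicates 2 and 3, so no fold between conditions is given for that fraction.

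Among the windows called lower, AT2G39240, annotated as an RRN3-type initiation factor of RNA polymerase I, held 12484, 9662 and 11891 in induced and 27241, 16774 and 23679 in uninduced poly(A)+ libraries. The induced values were below the uninduced ones, and the change was -0.97 ± 0.18. SNZ lies on the same strand of the AT2G39240 window. PDF1 held 42647, 46987 and 72874 in induced and 93458, 77176 and 87215 in uninduced poly(A)+ libraries. Induced replicate 3 came close to the lowest uninduced library, and the change was -0.70 ± 0.18. In ribo-minus libraries PDF1 held 5197, 7187 and 11258 in induced and 18880, 14843 and 16183 in uninduced libraries. That change of -1.14 ± 0.27 was not called, but without induced replicate 3 it was -1.44 and was called.

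AT2G02770, a phosphopantetheinyl transferase gene, held 8073, 7517 and 9285 in induced and 12877, 11154 and 16466 in uninduced poly(A)+ libraries (log2 change -0.69 ± 0.16). CENP-C, a kinetochore protein gene, held 8426, 8360 and 11016 in induced and 13505, 13640 and 12949 in uninduced poly(A)+ libraries (-0.54 ± 0.13). The induced values were below the uninduced ones in both windows, and AT2G02780 shares the strand of the AT2G02770 window. The changes were smaller at MAN7 (-0.34 ± 0.08) and at the window of LCD1 and the lipid transfer gene AT2G37870 (-0.40 ± 0.11), where 3 genes share the strand. Opposite AT1G70450, both strands together held 901, 1087 and 216 in induced and 4076, 2518 and 2475 in uninduced poly(A)+ libraries (-2.30 ± 0.58). The unannotated minus strand alone held 901, 725 and 0 in induced and 3658, 2518 and 2475 in uninduced poly(A)+ libraries, and with the larger strand alone this window was not called.

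With the replicate number as a block 3 members were called higher and 2 lower, AT2G39240 and AT2G02770. In all, 10 members were called in either direction, but 4 without uninduced replicate 1, 5 without uninduced replicate 2, 3 without uninduced replicate 3, and 4 each without induced replicate 1 or 2. In ribo-minus libraries 0 of 53 members tested were called by limma after knockdown and 5 had an unadjusted p under 0.05, beside 0.429% of 1863 windows called higher and 0.107% called lower. With median-ratio scaling 0 members were called, beside 0.537% of windows called higher and 0.0% called lower. Low signal in uninduced ribo-minus replicates 2 and 3 also chose the members, so nothing is read from the ribo-minus counts either.

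**Figure D4:**
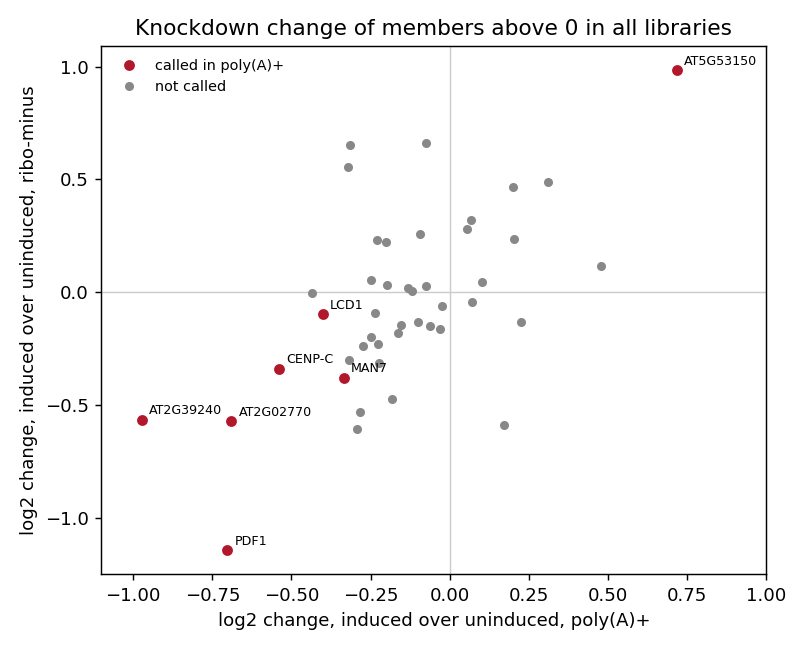
Log2 change after knockdown (induced over uninduced) in ribo-minus libraries (vertical axis) against poly(A)+ libraries (horizontal axis) for the 44 members above 0 in every library; red points were called in poly(A)+ libraries and carry the name of the gene with the longest overlap on the signal strand. AT5G53150 stands alone at the upper right and PDF1 at the lower left; AT3G17110 and the window opposite AT1G70450 have values of 0 and are not drawn.

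By position, members resembled the other one-sided windows. The midpoint lay outside annotated genes in 25 of 56 members (44.6%), against 41.5% of the other one-sided windows. It lay in a 3′ UTR in 13 (23.2%), against 23.1%, and in a 5′ UTR in 10 (17.9%), against 12.1%. Coding exons held 5 midpoints (8.93%, against 13.7%), introns 1 (1.79%, against 7.03%) and noncoding genes 2 (3.57%, against 2.66%).

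The gene with the longest overlap on the signal strand was protein coding in 51 of 55 members, and 1 member had no gene there. Its annotated 3′ end lay in the window in 37 of 55 members (67.3%), against 60.9% of the other one-sided windows, and its 5′ end in 26 (47.3%), against 37.7%. The polyadenylation signal AATAAA, searched on the transcript strand in its last 40 bases, was present in 1 of 55 members (1.82%), against 7.89%. TATAAA in the 50 bases before the start of the gene was present in 3 of 55 (5.45%), against 8.92%.

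Median GC content was 36.6% in members and 37.1% in the other one-sided windows. The median transcript length was 2217 bases in members and 2222 in the other one-sided windows. Exons of the gene with the longest overlap on the signal strand covered a median of 30.9% of a member window, against 36.7% of the other one-sided windows. Exons of other genes on that strand were not counted. In 29 of 56 members (51.8%) the signal strand held at least 2 genes, against 57.4%, so that the signal of these windows cannot be given to a single gene.

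**Figure D5:**
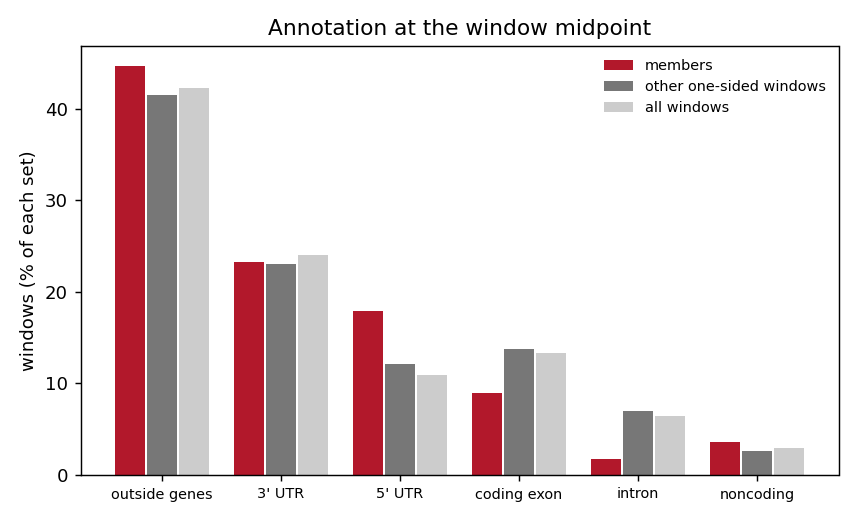
Annotation at the window midpoint, as a percentage of the 56 members (red), the 1167 other one-sided windows (dark grey) and all 1919 windows (light grey). Positions outside genes are the most frequent class in each set, at 44.6% of members.

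Overlapping windows did not always share the preference. In the 5 pairs of members that overlap each other, both windows met the rule. Windows that did not meet it overlap 6 members, 1 of them (AT4G02715) also in such a pair. MAN7 had a ratio of 0.180, against 0.484 in a window that shares 1226 bp with it. AT3G01760 had 0.189, against 0.540 in a window that shares 2047 bp. These uninduced ratios include the values that chose the members and are a description. At AT4G02715, a gene for a flocculation-like protein, the member at chr4:1198766-1201765 had 0.154 and a neighbour that shares 351 bp and is not one-sided had 3.30.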

How the data were processed

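RNA-seq signal in 1919 windows of 3000 bp was deposited by the authors for 12 libraries. Per the submitters' processing notes, CASAVA 1.8.2, TopHat2 2.0.9, Cufflinks 2.1.1, Cuffdiff and TAIR10 were used; how the deposited signal was made is not given in the sources used here. Its values look like scaled coverage (inferred), so depth is unknown and no counting interval can be given.

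Groups and replicate numbers came from the labels. Columns for the forward and reverse strand were summed per window. The members, gene lists and tests were chosen with earlier results of these data known. Comparisons used limma 3.58.1 in R 4.3.3 (lmFit, eBayes with trend) on log2(sum + 1). Values listed at 0 can make a fitted change larger than the ratio of means. The second window of AT1G09495 had a change of -7.03 between fractions, beside an induced ratio of 0.21. A window was tested where at least 3 libraries of the fit had a value above 0, and p-values were adjusted by Benjamini-Hochberg over all of them with a threshold of 0.05. For single values per library, exact permutation tests (two-sided) were run. The fits were checked on simulated data in which all windows had the same spread and few of them changed. That check does not cover values listed at 0 or a shift of most windows. Genes, sequences and motifs came from RefSeq TAIR10.1, the same nuclear assembly as TAIR10, and gene lists and markers from word patterns in gene names and descriptions. Tables were made with pandas 2.3.3 and numpy 2.4.6 in Python 3.11.15, tests with scipy 1.17.1, figures with matplotlib 3.10.9.

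Named genes were the members with the lowest ratio, the highest poly(A)+ signal, or the largest and smallest changes between fractions. Also named were those nearest to the limit, matched by a gene list or called after knockdown. Others were named for overlapping windows or calls that depended on the setting, or are marked as chosen after their values were seen. In the fraction comparison, replicate numbers pair the libraries: each pair comes from the same total RNA per the labels, and deviations of same-numbered libraries correlated at 0.196, 0.128 and 0.322. Alternatives were no filter, a stricter filter, a pseudocount of 0.1, median-ratio scaling, a common floor (values raised to 1005), the larger strand alone, no trend, the replicate block and each library left out. One sequence is not reported here.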

Additional observations from a re-analysis of the deposited data

Results flagged for a closer look

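The smaller strand of 1 member was above 1005 in all 3 induced poly(A)+ libraries and above all 3 uninduced ones, a measure that no comparison here used. At the window of AT1G61440 and AT1G61450 (chr1:22671574-22674573) it is the minus strand, which carries AT1G61440 and AT1G61460. It held 1246, 1537 and 1169 in induced and 842, 1033 and 893 in uninduced poly(A)+ libraries. The induced mean was 1317. This difference was not tested, and the rule itself held the uninduced poly(A)+ mean of the smaller strand below 1005. How many windows outside the members show the same was not counted. At AT5G53150 the smaller strand held 1591, 871 and 1122, at PDIL2-2 450, 1463 and 1339, and at AT4G36980 1051, 769 and 1232 in induced poly(A)+ libraries, each with 1 library below 1005. In the induced ribo-minus libraries the smaller strand was above 1005 in all 3 libraries in 0 members.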

How the results depend on the processing

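Between fractions in induced seedlings, the count of members called lower stayed between 40 (median-ratio scaling) and 53, and was 49 to 53 with each library left out; 0 members were called higher in any setting. The per-library median of the members ran over -2.69 to -2.46 with a library left out and the difference from the other one-sided windows over -1.39 to -1.32. With the replicate block the exact permutation p of both was 0.25, the smallest that 3 pairs allow, and 52 members were called lower. With median-ratio scaling the direction turned at AT1G61440 and AT1G61450 (0.33), AT3G01760 (0.12) and RAD9 (1.07). Of the 56 members, 40 could be tested under all these settings and kept both their direction and their side of the threshold. The rest include members that changed and members that some settings could not test. In the poly(A)+ knockdown, 10 members were called, but 4 without a filter, 4 without the trend and 5 with the replicate block, and 3 to 12 with a library left out; the cause was not tested. Without a library fewer samples enter the fit. Same-numbered libraries correlated at 0.0927, 0.122 and -0.0929 there, so the numbers are not taken as pairs. In the ribo-minus knockdown the counts with a library left out were 0 to 1. Depth limits the 5 members with an uninduced poly(A)+ mean under 3 times the floor.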
